A study of Arabidopsis thaliana with 4 samples.

Results

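Actin is encoded in Arabidopsis by a small gene family, of which 8 loci were examined in tissue enriched for shoot meristems and in young leaves. They were the vegetative genes ACT2 (AT3G18780), ACT7 (AT5G09810) and ACT8 (AT1G49240) and the reproductive genes ACT1 (AT2G37620), ACT3 (AT3G53750), ACT4 (AT5G59370), ACT11 (AT3G12110) and ACT12 (AT3G46520). Each was represented on the array by 1 probe that names the locus, so the family made up 8 of 25665 loci with a probe. The division into vegetative and reproductive genes is the customary one and was not taken from these data.

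All plants were clv3-9 mutants in the Columbia background, 9 weeks old, grown on soil in short days (8 h light, 16 h dark). The clv3-9 allele is a point mutation that abolishes the function of CLAVATA3, the peptide that limits the stem cell pool, and such mutants have enlarged shoot meristems; a wild type was not hybridised, so both tissues carried the mutation. Tissue was separated by hand into a meristem-enriched fraction and whole young leaves, with 2 biological replicates of each, and total RNA was hybridised to 4 one-colour 44k oligonucleotide arrays. The meristem fraction is enriched and not pure, and neither fraction is a single cell type.

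Actin monomers assemble into filaments that organise the cortex of plant cells, carry organelles and vesicles, and set the direction of cell expansion. In Arabidopsis the protein family is very similar in sequence, whereas the genes differ in where they are used. ACT2, ACT7 and ACT8 are known as the genes of leaves, stems and roots, with ACT7 also known for its response to auxin, and the other genes are known mainly from pollen, ovules and young organ primordia. Several of them serve as internal references in expression work, and the comparison of the arrays gives the difference of each member between a dividing and a differentiated tissue of the same plants.

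The signal of a probe is given as log2 of the processed fluorescence intensity after each array was scaled to its 75th percentile, called the normalized log2 intensity below. The 75th percentile of the processed signal lay at 874 and 978 for the meristem and at 606 and 794 for the leaf, and between 60.1% and 63.3% of the probes were well above background on each array. The markers of the tissues matched their labels. The meristem genes STM (6.73) and CLV3 (5.61) were higher in the meristem on the log2 scale, as was WUS by at least 33.0-fold, since it was not well above background in leaves. Their summed scaled intensity was 10400 and 13800 in the meristem and 126 and 132 in the leaf. The green tissue genes RBCS-1B (-7.44), LHCB1.4 (-7.41) and CA1, the last well above background on 1 of the 2 meristem arrays, were lower, all with an adjusted p between 0.000464 and 0.00174 in limma. The 3 green markers summed to a scaled intensity of 3760 and 1260 in the meristem against 406000 and 345000 in the leaf, so that meristem replicate 1 held the larger remnant of green tissue signal. Of the 5 flower genes tested, 3 were higher in the meristem (PI by 2.25, AP1 by 3.41 and LFY, the last well above background on 1 leaf array only), with summed intensities of 860 and 1130 against 94.3 to 104. Of the 2 trichome genes, GL1 was higher in the meristem by 2.61, with sums of 758 to 1320 against 457 to 493. The 4 vascular genes were split. SUC2 was lower (-1.74), while APL (-0.60), ATHB8 (0.23) and IRX3 (0.69) did not pass. Their sums were 5310 to 6250 against 10700 to 11200, with SUC2 the brightest of the 4 in the leaf. The part of these cell types in the differences given below was not tested.

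Of the 8 actin genes, 6 gave a signal well above background on all 4 arrays, and ACT4 and ACT12 gave none on any array. In the 6 measured genes no locus was higher in the meristem, 2 were lower (ACT2 and ACT11) and 4 did not pass the test in either direction (ACT1, ACT3, ACT7 and ACT8). At the 75th percentile the differences were small, and the size of all 6 lay under 1 on the log2 scale. The sizes also moved with the scaling: ACT2 was at -1.11 with the median and ACT1 at 1.25 with spike-in controls. The calls depended on the scaling of the arrays, and ACT2 and ACT11 were called lower at the 75th percentile, the median and the 3 reference genes, but not with quantile normalization, spike-in controls, no scaling or normexp background correction.

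These counts stand against a background in which a difference between the tissues was frequent. Of 23259 loci tested with limma and an adjusted p of at most 0.05, 27.1% were higher in the meristem and 21.6% were lower, so that 2 of 6 actin genes lower (33.3%) and 0 of 6 higher can be read only against those shares. Calls were more frequent among brighter loci, to which the 6 belong. With only loci well above background 11931 of 19962 were called, against 11315 of 23259, and 57.1% of the 11931 were higher. A difference of at least 2 on the log2 scale with the same adjusted p was found for 13% of all loci in either direction and for 0 of the 6 actin genes. A difference under 1 was found for 67.9% of all loci. The 2 tissues did not overlap in 5 of the 6 actin genes (83.3%) and in 79.3% of all loci, a share near the background. At an unadjusted p of at most 0.05, limma called the same counts, 0 higher and 2 lower, against 31.9% and 24.6% of all loci. The methods' t-test called 0 higher and 1 lower before adjustment, against 25.1% and 20.8% of all loci, and 0 after it, against 24.1%. The median difference was 0.13 over the 6 genes and 0.10 over all loci, and the median size of the difference was 0.32 against 0.59. All 4 arrays lie on 1 slide, and the biological replicates were few, so the intervals below are wide. In such bulk samples, fewer cells of a type and less RNA per cell cannot be told apart.

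**Figure D1:**
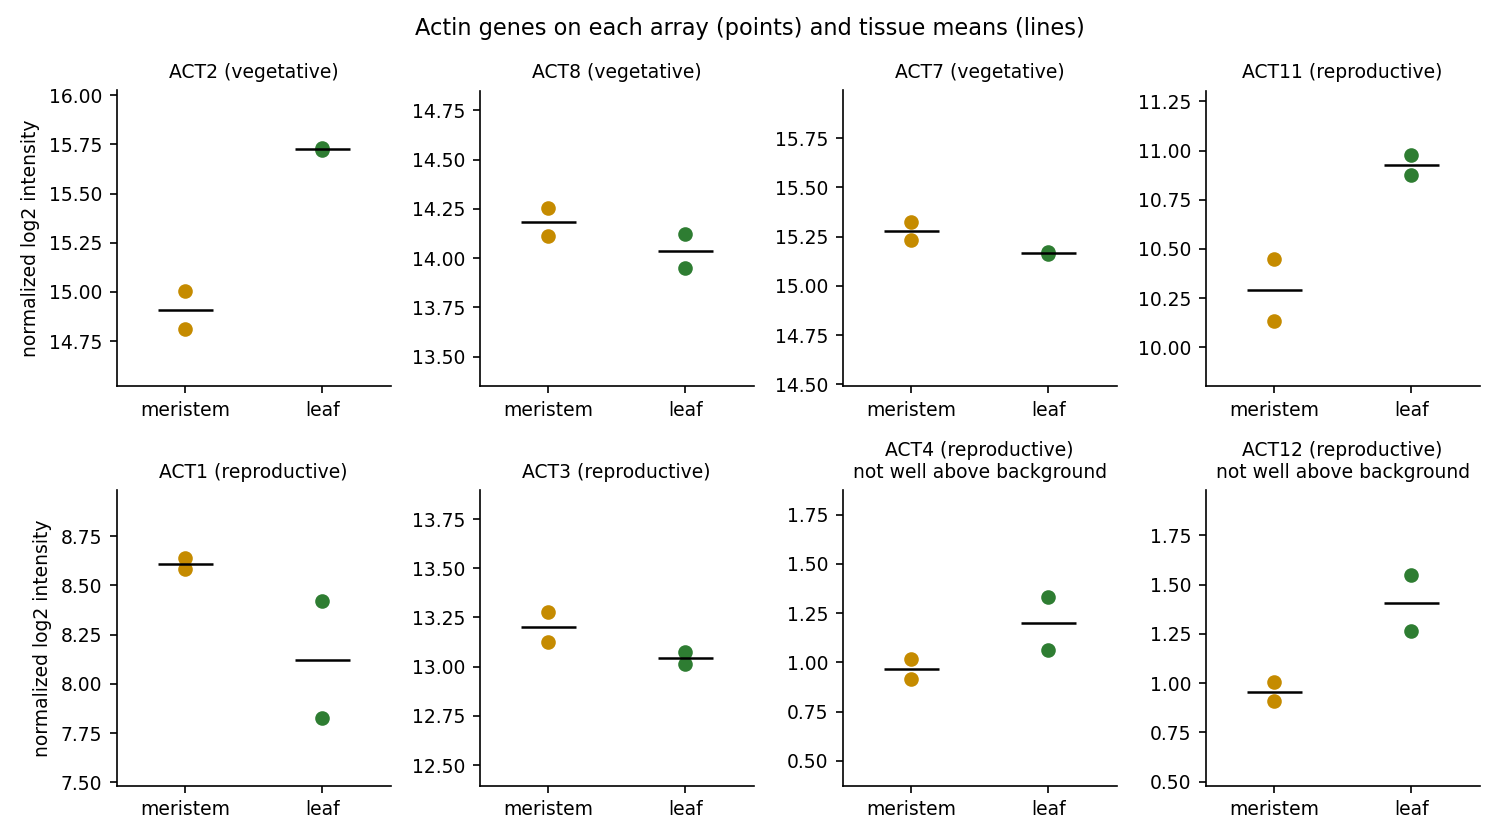
Normalized log2 intensity (y axis, all panels spanning the same range, each around its own level) of the 8 actin genes on the 2 meristem arrays (yellow points) and the 2 leaf arrays (green points), with the tissue means as lines. ACT2 and ACT11 sat lower on both meristem arrays than on both leaf arrays, the 2 leaf arrays of ACT1 lay apart from each other, and ACT4 and ACT12 were not well above background on any array. Levels of different probes are not comparable between panels.

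ACT2, with ACT8 one of a pair of nearly identical vegetative actins and known from the growth of root hairs, was the actin gene with the largest difference at this scaling. The meristem arrays gave processed signals of 35945 and 35189 and the leaf arrays 41160 and 53598. After scaling these became normalized log2 intensities of 15.01 and 14.81 in the meristem and 15.73 and 15.72 in the leaf, and the tissues did not overlap. The mean was 14.91 ± 0.14 (SD, n = 2) against 15.73 ± 0.01 (SD, n = 2), a log2 difference of -0.82 with a 95% confidence interval of -1.18 to -0.46. ACT2 was thus 1.76-fold lower in the meristem (limma, adjusted p = 0.00994). The call was lost without leaf replicate 1 (adjusted p = 0.0616) and without leaf replicate 2 (adjusted p = 0.058), where the difference was -0.81 and -0.82. It was also lost under 5 other settings, in which the difference ran from -0.82 to -0.05, the smallest under scaling to the spike-in controls. The higher of the meristem values was that of replicate 1, which also held more green tissue signal, and a link between them was not tested. The probe lies at chr3:6476949-6477008 in the array's own coordinates, whose genome build is not stated.

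ACT8, its closest relative, had processed signals of 19363 and 23875 (meristem) and of 11949 and 17688 (leaf). The normalized log2 intensities were 14.11 and 14.25 in the meristem and 13.95 and 14.12 in the leaf, so the tissues overlapped. The difference of 0.15 (95% confidence interval -0.23 to 0.52) did not pass the test (adjusted p = 0.414). It was called higher with quantile normalization (0.46, adjusted p = 0.0479) and with spike-in controls (0.92, adjusted p = 0.00514), and its sign turned to -0.15 with scaling to the median. The probe lies at chr1:18221685-18221744.

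The signals of the pair were also set against each other on the same array, a ratio in which any scaling factor cancels. The log2 ratio of ACT2 over ACT8 was 0.89 and 0.56 in the meristem and 1.78 and 1.60 in the leaf. Both meristem arrays were below both leaf arrays, and the mean ratio was 1.95-fold lower in the meristem. A comparison of 2 arrays against 2 cannot give a two-sided exact p below 0.333, which is the value reached here in the exact permutation test (0.758 after Benjamini-Hochberg adjustment over 25 ratios). The level of either probe says nothing about that of the other, since probes differ in their response, and the values show only that the ratios of the tissues did not overlap. The probe sequences were not used here, so how far each probe binds transcripts of the other gene was not tested.

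ACT7 is the vegetative actin of rapidly growing tissue. It has often gone under another name: the array describes its probe as actin 7 and actin 2, RefSeq lists ACT2 among its synonyms, and the study's methods give AT5G09810 as ACTIN2 where it served as the reference of a chromatin immunoprecipitation. The value of this locus is therefore not that of ACT2, AT3G18780, described above. The study's oligonucleotides for it are shown because they identify the locus that was used. They are 20 bases long, are printed from 5′ to 3′ in lower case with no part marked, belong to a gene on chromosome 5, and form 2 forward and reverse pairs, named ACT-pA and ACT-pATG:
ACT-pA-F: ccaggaattgctgaccgtat
ACT-pA-R: ggtgcaaccaccttgatctt
ACT-pATG-F: tagtgaaaaatggccgatgg
ACT-pATG-R: ccattccagttccattgtca

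For ACT7 the meristem arrays gave processed signals of 42121 and 50132 and the leaf arrays 27896 and 36294. The normalized log2 intensities were 15.24 and 15.32 in the meristem and 15.17 and 15.16 in the leaf. The meristem values lay above the leaf values on all arrays by a small margin, with means of 15.28 ± 0.06 and 15.17 ± 0.01 (SD, n = 2 each). The difference was 0.11 (95% confidence interval -0.21 to 0.44) and did not pass the test (adjusted p = 0.462). Both ends of the interval lie within 1 of 0 at this scaling. As for ACT8, quantile normalization (0.70, adjusted p = 0.00883) and spike-in controls (0.88, adjusted p = 0.00357) called it higher, and the sign turned with the median (-0.18) and with the reference genes (-0.03). The coordinates of its probe, chr5:3054021-3054178, span 158 bases against 60 for each of the other 7 probes, the only probe of the family with a longer span.

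Relative to ACT7 on the same array, ACT2 stood lower on both meristem arrays, as it did relative to ACT8. The log2 ratio of ACT2 over ACT7 was -0.23 and -0.51 in the meristem and 0.56 on both leaf arrays, and the ratio was 1.91-fold lower in the meristem (exact permutation p = 0.333). ACT8 over ACT7 gave -1.12 and -1.07 in the meristem and -1.22 and -1.04 in the leaf, where the tissues overlapped and the difference was 0.03 (exact permutation p = 1). The plot of ratios shows both patterns next to each other.

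The loci whose 4 normalized log2 values, centred on their mean, lay nearest to those of ACT7 were sought among 18552 other loci that were well above background on all 4 arrays. They were CNGC13 (AT4G01010), RUS3 (AT1G13770) and AT3G16740, with Euclidean distances of 0.005, 0.0108 and 0.0141 over the 4 arrays. CNGC13 encodes a cyclic nucleotide-gated channel and AT3G16740 is described as an F-box protein. Their differences between the tissues were 0.11, 0.11 and 0.10, with an adjusted p of 0.475, 0.479 and 0.501. The likeness rests on 4 values only, and it did not hold with quantile normalization, where ACT7 was at 0.70 but CNGC13 at -0.0039, RUS3 at -0.13 and AT3G16740 at 0.13.

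**Figure D2:**
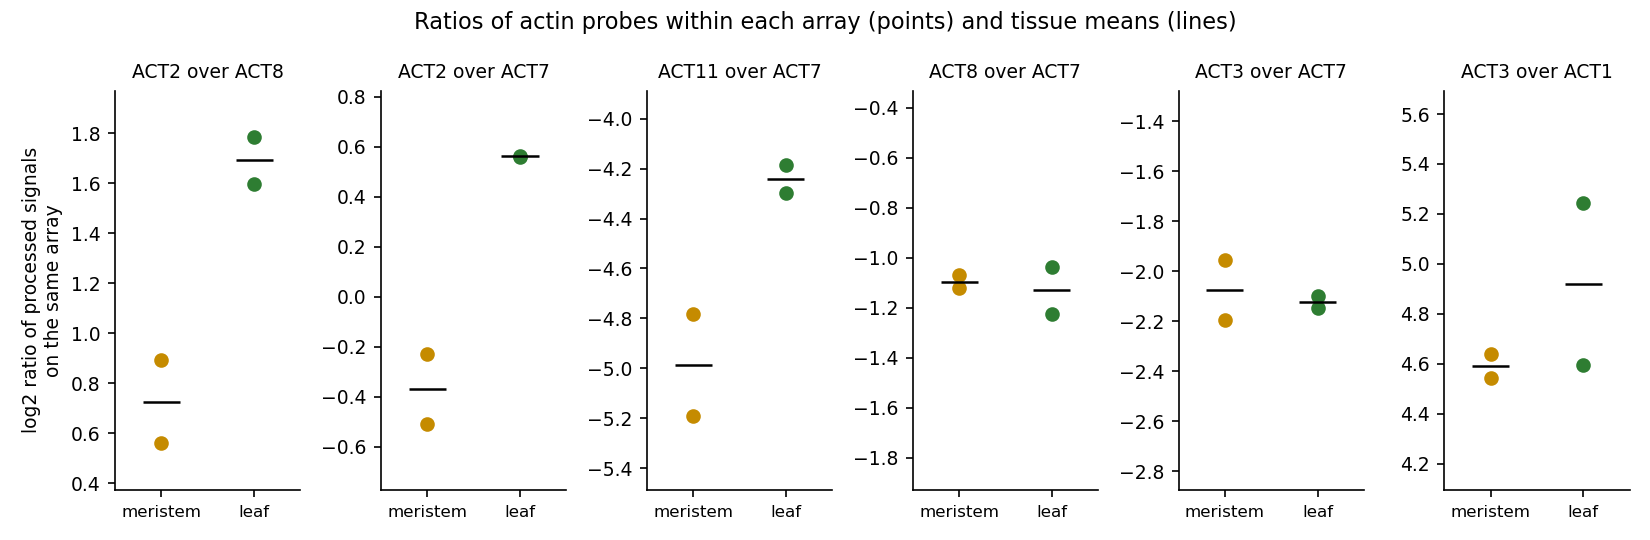
Log2 ratio of the processed signals of pairs of actin probes on the same array (y axis, all panels spanning the same range, each around its own level) for the 2 meristem arrays (yellow) and the 2 leaf arrays (green), with tissue means as lines. ACT2 over ACT8, ACT2 over ACT7 and ACT11 over ACT7 were lower on both meristem arrays than on both leaf arrays, while ACT8 over ACT7, ACT3 over ACT7 and ACT3 over ACT1 overlapped between the tissues.

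Of the reproductive genes, ACT11, known from ovules, embryos and pollen, was measured well above background in both tissues. The meristem arrays gave processed signals of 1529 and 1373 and the leaf arrays 1419 and 1995. The normalized log2 intensities were 10.45 and 10.13 in the meristem and 10.87 and 10.97 in the leaf. Both meristem arrays lay below both leaf arrays, with means of 10.29 ± 0.22 and 10.92 ± 0.07 (SD, n = 2 each), a difference of -0.63 (95% confidence interval -1.07 to -0.19) and a 1.55-fold lower signal in the meristem (limma, adjusted p = 0.0354). The call did not hold with the replicate number as a block (adjusted p = 0.0595), nor without meristem replicate 2 (adjusted p = 0.0756), leaf replicate 1 (adjusted p = 0.114) or leaf replicate 2 (adjusted p = 0.153), and with spike-in controls the sign turned to 0.14. The ratio of ACT11 over ACT7 on the same array was -4.78 and -5.19 in the meristem and -4.30 and -4.19 in the leaf, 1.68-fold lower in the meristem (exact permutation p = 0.333). The probe lies at chr3:3859186-3859245.

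ACT1 and ACT3 form another pair of close relatives, known from pollen and from young organs. ACT1 had the widest spread of the family. Processed signals were close to each other in the meristem, at 435 and 468, but not in the leaf, at 172 and 339, or 8.64 and 8.58 against 7.83 and 8.42 as normalized log2 intensity. The SD was 0.04 in the meristem and 0.42 in the leaf, where the spread over all loci pooled from both tissues was 0.31. The difference of 0.49 (95% confidence interval -0.15 to 1.12) did not pass the test (adjusted p = 0.157), and it was 0.19 without leaf replicate 1 and 0.78 without leaf replicate 2, so that 1 leaf array sets its size. It was called higher without scaling (0.90, adjusted p = 0.0364) and with spike-in controls (1.25, adjusted p = 0.0109). The probe lies at chr2:15787279-15787338.

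ACT3 gave processed signals of 10856 and 10931 in the meristem and 6513 and 8193 in the leaf. The normalized log2 intensities of 13.28 and 13.13 in the meristem and 13.07 and 13.01 in the leaf did not overlap, but the margin was small and the difference of 0.16 (95% confidence interval -0.19 to 0.51) did not pass the test (adjusted p = 0.348). With spike-in controls it was called higher (0.93, adjusted p = 0.00489), and its sign turned to -0.14 with scaling to the median. Within an array, ACT3 over ACT1 was 4.64 and 4.54 in the meristem and 5.24 and 4.59 in the leaf, and the tissues overlapped (exact permutation p = 0.667). The probe of ACT3 lies at chr3:19928300-19928359. How far the probes of ACT1 and ACT3 bind transcripts of other actin genes was not tested.

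ACT4 and ACT12, the pair known from late pollen, gave no signal in the measured range. The processed signal of ACT4 was 2.06 and 2.47 in the meristem and 1.90 and 2.07 in the leaf, and that of ACT12 was 2.05 and 2.45 in the meristem and 1.82 and 2.90 in the leaf. Among probes well above background the lowest signal was 8.00 and 9.27 for the meristem and 7.04 and 7.56 for the leaf, so all 8 values lay below the range in which the arrays measured, and no fold is given. The 2 loci did not enter the test. Of the 3 pollen markers, VGD1 and ANX1 likewise did not rise well above background on the 4 arrays, and GCS1 did so on 1 meristem array only. The probes lie at chr5:23968228-23968287 for ACT4 and chr3:17140356-17140415 for ACT12.

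**Figure D3:**
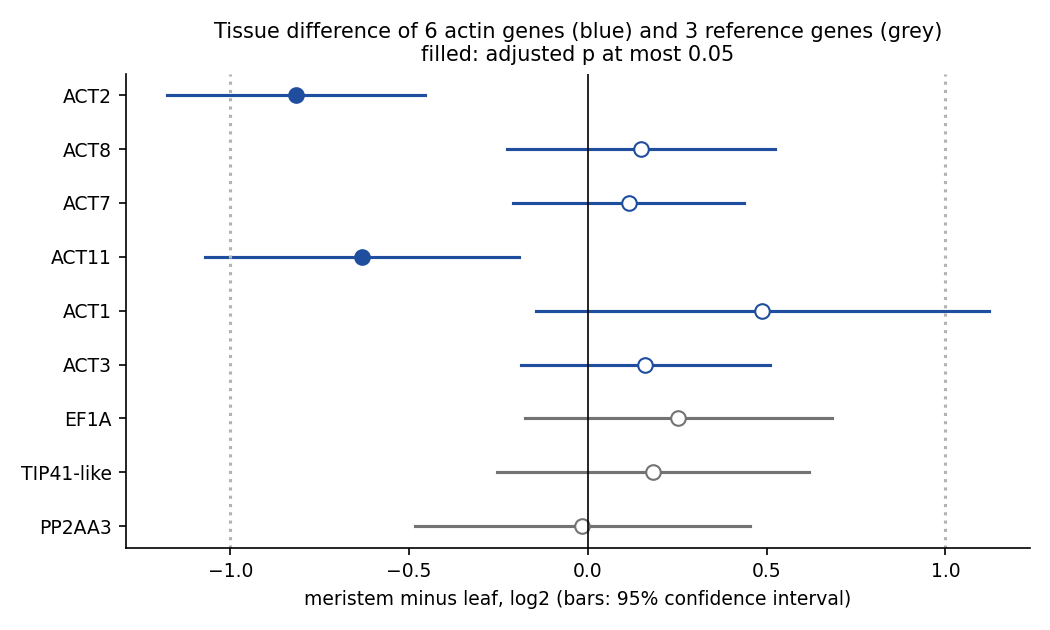
Difference between the tissues (x axis, meristem minus leaf in normalized log2 intensity) for the 6 measured actin genes (blue) and the 3 reference genes of the study's qRT-PCR (grey), with 95% confidence intervals as bars and filled points where the adjusted p was at most 0.05. The intervals of ACT2 and ACT11 lay below 0 and those of the other 7 genes crossed it, with dotted lines at a difference of 1 in either direction.

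The qRT-PCR assays were referred to EF1A (AT5G60390), a translation elongation factor, TIP41-like (AT4G34270) and PP2AA3 (AT1G13320), a subunit of protein phosphatase 2A. On the arrays none of the 3 passed limma's test, at an unadjusted p of at most 0.05 either, and none passed the methods' t-test. The differences of the reference genes were 0.25 for EF1A (95% confidence interval -0.18 to 0.68), 0.18 for TIP41-like (-0.25 to 0.62) and -0.02 for PP2AA3 (-0.48 to 0.45). Those of ACT8, ACT7 and ACT3 fell in the same range. The reference genes also moved with the processing. Over 15 alternative settings EF1A ran from -0.04 to 1.49 and was called in 2. TIP41-like ran from -0.11 to 0.95 and PP2AA3 from -0.31 to 0.75, each called in 1. Within each array, ACT2 was lower in the meristem against all 3 reference genes, by 2.10-fold against EF1A, 2.00-fold against TIP41-like and 1.74-fold against PP2AA3, and in each of these ratios both meristem arrays lay below both leaf arrays. ACT11 behaved in the same way, by 1.85-fold, 1.76-fold and 1.53-fold. ACT7 moved by 1.10-fold or less against each of the 3, and in none of its ratios were the tissues apart. The exact permutation p was 0.333 for the ratios of ACT2 and ACT11 and between 0.667 and 1 for those of ACT7.

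The 4 arrays carried common spike-in controls, but these do not measure the RNA content per cell of a tissue. The choice of scaling therefore bears on every small difference above. Against the 75th percentile, the median difference of all loci fell by 0.30 with scaling to the median, fell by 0.14 with the 3 reference genes and fell by 0.17 with normexp background correction, and it rose by 0.42 without scaling and by 0.77 with spike-in controls. The share of higher calls among all calls was 55.7% at the 75th percentile, 37.2% at the median, 73.3% without scaling, 85.1% with spike-in controls and 29.5% with normexp background correction. Scaling to a percentile, the median, the reference genes or the spike-in controls and no scaling differ by 1 constant for all loci, so the order of the actin genes is the same under these by construction. Quantile normalization and normexp background correction move loci unequally. With quantile normalization the median of all loci fell by 0.0086, while ACT7 went from 0.11 to 0.70 and ACT11 (-0.57) lay below ACT2 (-0.24). With normexp background correction ACT2 was at -0.79, and the 4 genes above 0 stayed above it. The number of actin genes called lower and higher was 2 and 0 at the 75th percentile, the median and the reference genes, 0 and 2 with quantile normalization, 0 and 1 without scaling, 0 and 4 with spike-in controls, and 0 and 0 with normexp background correction. Of all loci, 22.1% were lower and 26.8% higher with quantile normalization, 12.2% and 33.5% without scaling, 11.5% and 65.6% with spike-in controls, 29.7% and 17.6% at the median, 24.3% and 21.2% with the reference genes, and 5.61% and 2.35% with normexp background correction.

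**Figure D4:**
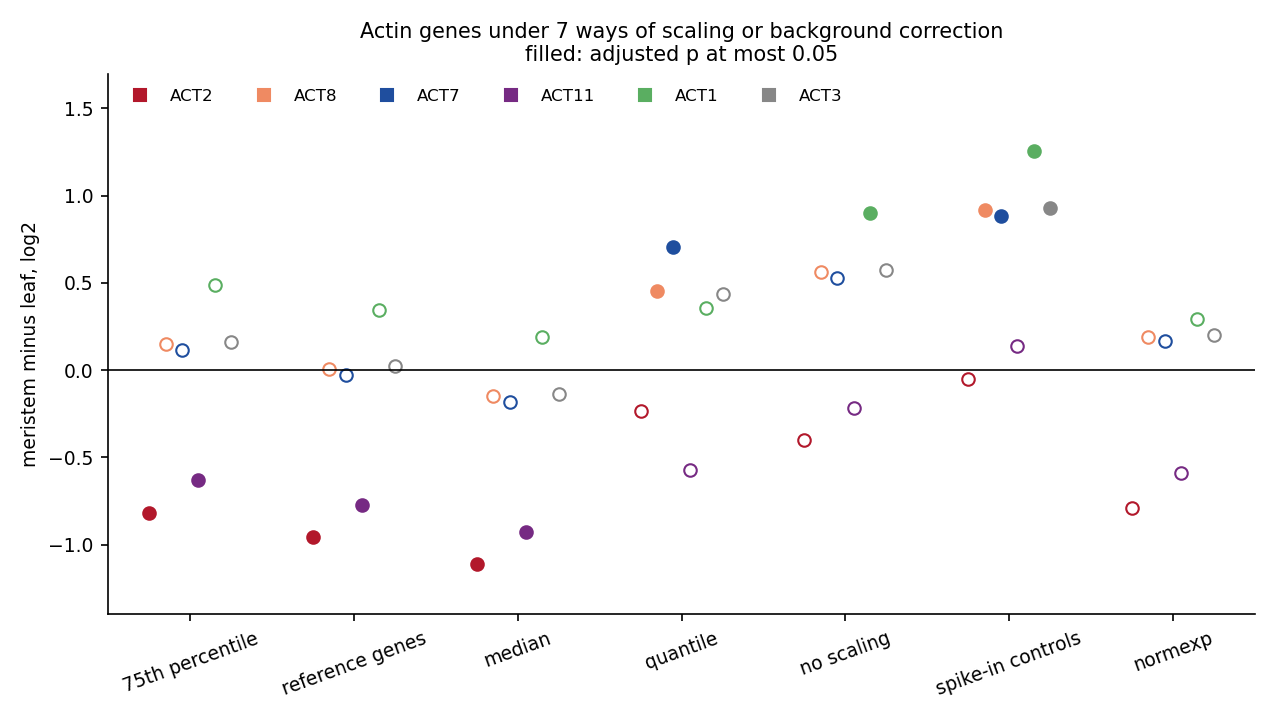
Difference between the tissues (y axis, meristem minus leaf in log2) of the 6 measured actin genes under 7 ways of scaling the arrays or correcting the background (x axis), filled where the adjusted p was at most 0.05. ACT2 and ACT11 were filled below 0 under the first 3 scalings, and ACT8, ACT7, ACT1 and ACT3 were filled above 0 with spike-in controls.

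The proteins that act on actin filaments were examined next, as 65 listed loci in 10 classes, of which 64 were on the array and 61 were tested. In limma, 10 were higher in the meristem, 11 were lower and 40 did not pass, or 16.4% higher and 18% lower against 27.1% and 21.6% of all loci. Of the 61, VLN1 and FIM1 differed by 2 or more on the log2 scale with an adjusted p of at most 0.05, as did 13% of all loci. The median difference was 0.08 and its median size 0.44, against 0.10 and 0.59 over all loci. With spike-in controls 36 were higher (59% against 65.6% of all loci) and 1 lower (1.64% against 11.5%). With scaling to the median 4 were higher (6.56% against 17.6%) and 21 lower (34.4% against 29.7%). With normexp background correction 1 was higher (1.64% against 2.35%) and 1 lower (1.64% against 5.61%).

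Profilins bind actin monomers and feed them to growing filaments. Of the 4 tested, PRF2 (-0.62, adjusted p = 0.0185) and PRF3 (-0.70, adjusted p = 0.0128) were lower in the meristem (50% against 21.6% of all loci). None was higher, also at an unadjusted p of at most 0.05, against 27.1% and 31.9% of all loci. PRF2 read 14.56 and 14.62 in the meristem and 15.28 and 15.14 in the leaf, and PRF3 read 10.51 and 10.40 against 11.20 and 11.11, with no overlap in either gene. The calls held under 8 (PRF2) and 10 (PRF3) of 15 alternatives, and with spike-in controls the sign turned for both. PRF1 was at -0.34 (adjusted p = 0.0938). The pollen profilins PRF4 and PRF5 were not well above background on any array.

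The actin depolymerizing factors bind and sever filaments, and the members ADF5 and ADF9 are known to bundle them instead. Of 9 tested, ADF5 (0.56) and ADF6 (0.56) were higher in the meristem and ADF2 (-0.53) was lower. These shares, 22.2% higher and 11.1% lower, stand against 27.1% and 21.6% of all loci. ADF5 read 12.13 and 12.22 in the meristem and 11.66 and 11.57 in the leaf (adjusted p = 0.023), and ADF9 had a difference of 0.58 that did not pass (adjusted p = 0.0691). The calls held under 8 (ADF5), 7 (ADF6) and 5 (ADF2) of 15 alternatives. No depolymerizing factor was called higher with the median, the reference genes or normexp background correction, and the sign of ADF2 turned with spike-in controls. ADF7, ADF8, ADF10 and ADF11 were not well above background on any array. Among the cyclase-associated protein, the AIP1 proteins and the capping protein subunits, which act on monomers and filament ends, none of 5 passed in limma. Of all loci, 27.1% were higher and 21.6% were lower. At an unadjusted p of at most 0.05, limma called 1 higher and 0 lower, against 31.9% and 24.6% of all loci. After adjustment 0 passed the methods' t-test, against 24.1% of all loci. The differences of the 5 ran from -0.44 (CAP1) to 0.39 (CPB).

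The largest differences among the regulators measured above background at this scaling were those of VLN1 and FIM1, members of 2 classes that bundle filaments. Of the villins, VLN1 read 10.60 and 10.01 in the meristem and 8.04 and 8.01 in the leaf, a difference of 2.28 (95% confidence interval 1.65 to 2.92, adjusted p = 0.00289) that passed under all settings except the methods' t-test (adjusted p = 0.058). VLN2 went the other way, at 11.37 and 11.04 against 12.22 and 12.27, a difference of -1.04 (adjusted p = 0.00907), a call that held under 11 of 15 alternatives. VLN5 was higher by 0.56 (adjusted p = 0.0275), which held under 7 of 15 and not with quantile normalization, the median or the reference genes, and its sign turned with normexp background correction. Of the 5 villins tested, 2 were higher and 1 was lower, or 40% and 20% against 27.1% and 21.6% of all loci. VLN3 (-0.47) and VLN4 (-0.39) did not pass. In the fimbrins, which crosslink filaments, none of 5 was higher (against 27.1% of all loci) and 3 were lower (60% against 21.6%). FIM1 read 8.63 and 8.52 in the meristem and 10.76 and 10.82 in the leaf, a difference of -2.21 (95% confidence interval -2.54 to -1.88, adjusted p = 0.000815) that passed under all 15 alternatives. FIM4 (-0.83, adjusted p = 0.026) and FIM5 (-0.83, adjusted p = 0.0405) were lower as well, under 9 and 8 of 15 alternatives, and FIM2 was at -0.73 (adjusted p = 0.0911). All 5 fimbrins had a negative difference under each of the 7 settings except with spike-in controls, where FIM2 turned to 0.04. FIM3 was well above background on 1 leaf array only, so the size of its difference (-1.90) rests on that array.

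**Figure D5:**
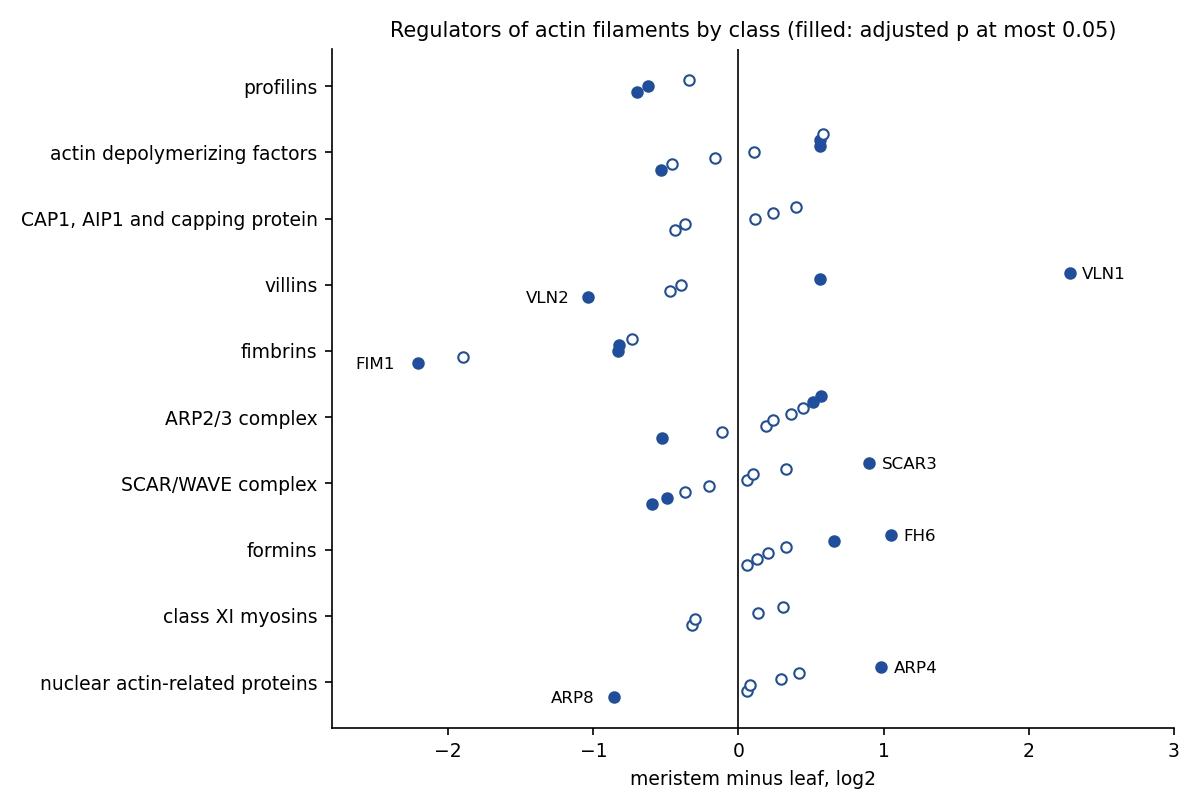
Difference between the tissues (x axis, meristem minus leaf in normalized log2 intensity) of the 57 tested regulators of actin filaments that were well above background on at least 1 array, by class (y axis), filled where the adjusted p was at most 0.05. VLN1 (2.28) and FIM1 (-2.21) lay farthest from 0, and all fimbrins lay below it, FIM3 with a signal well above background on 1 leaf array only.

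The nucleators of filaments and their activators held calls in both directions. The ARP2/3 complex starts branched filaments, and of its 8 tested subunits ARPC1B (0.57, adjusted p = 0.0213) and ARPC5A (0.51, adjusted p = 0.0416) were higher while ARPC3 (-0.52, adjusted p = 0.025) was lower. These shares, 25% higher and 12.5% lower, stand against 27.1% and 21.6% of all loci. The calls held under 9 (ARPC1B), 5 (ARPC5A) and 9 (ARPC3) of 15 alternatives. No subunit was called higher with the median, the reference genes or normexp background correction, and the sign of ARPC3 turned with spike-in controls. Of the SCAR/WAVE complex, which activates ARP2/3, SCAR3 was higher at 9.96 and 9.98 against 9.06 and 9.09 (difference 0.90, adjusted p = 0.00527), a call that held under 14 of 15 alternatives. SCAR1 (-0.49, adjusted p = 0.0456) and SCAR4 (-0.60, adjusted p = 0.0366) were lower, under 6 and 7 of 15 alternatives. Neither was called without scaling or with normexp background correction, and both signs turned with spike-in controls. Of the 8 tested SCAR/WAVE genes, 5 did not pass. The SCAR/WAVE shares, 12.5% higher and 25% lower, stand against 27.1% and 21.6% of all loci. Formins start unbranched filaments. Of 7 tested, FH6 was higher at 10.76 and 10.87 against 9.68 and 9.84 (difference 1.05, adjusted p = 0.00503), FH8 was higher by 0.66 (adjusted p = 0.0146), and none was lower, at an unadjusted p of at most 0.05 either. The formin shares, 28.6% higher and 0% lower, stand against 27.1% and 21.6% of all loci, and 24.6% lower at the unadjusted p. The calls of FH6 and FH8 held under 14 and 11 of 15 alternatives. FH14 had the smallest measured difference of the class (0.06, adjusted p = 0.809), and no array measured FH3 well above background.

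The motors and the nuclear relatives of actin completed the list. None of the 4 class XI myosins, which move organelles along filaments, passed in limma, against 27.1% of all loci higher and 21.6% lower. None passed in limma at an unadjusted p of at most 0.05 either, against 31.9% and 24.6%. By the methods' t-test 1 was lower before adjustment (against 20.8% of all loci) and 0 passed after it (against 24.1%). The differences ran from -0.32 (XI-K) to 0.30 (XI-I). Of the nuclear actin-related proteins, ARP4, a subunit of chromatin remodelling and histone acetyltransferase complexes, was higher in the meristem at 12.92 and 12.98 against 11.97 and 11.95 (difference 0.98, 95% confidence interval 0.67 to 1.30, adjusted p = 0.00428). ARP8 was lower, at 9.31 and 9.45 against 10.25 and 10.22 (difference -0.86, adjusted p = 0.00729). The calls held under 14 (ARP4) and 11 (ARP8) of 15 alternatives, and the other 4 of the 6 genes did not pass. The class shares, 16.7% higher and 16.7% lower, stand against 27.1% and 21.6% of all loci.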

How the data were processed

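RNA of 2 meristem and 2 leaf samples was amplified with an oligo-dT primer and T7 polymerase, labelled with Cy3 and hybridised by a service provider to 4 arrays on 1 slide. The deposited tables are scanner output of Feature Extraction 9.5.3.1 and hold, per the file headers, a fluorescence intensity per spot (mean signal, local background, background-subtracted signal and processed signal), not scaled between arrays. The number of arrays, and not a depth, limits the precision, and p-values measure only the spread between these samples.

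Processed signals were put on the log2 scale and each array was set to a common 75th percentile, leaving out outlier spots. Spots of a probe were averaged, and the brightest of several probes stood for a locus (26236 of 37478 probes name a locus). Loci with a background-subtracted signal above 0 on both arrays of a tissue were tested by lmFit and eBayes of limma 3.58.1 (R 4.3.3; data.table, version 1.17.8), a fit also tested on simulated data. Adjustment was by Benjamini-Hochberg over all 23259 loci, with an adjusted p of at most 0.05 as a call; 15 expressed loci with a missing spot were not tested. A fold against a tissue not well above background is a lower bound, taken from the lowest signal among probes well above background. Ratios within an array were compared by two-sided exact permutation tests. RefSeq's gene table gave symbols for 25449 of 25665 loci, and its coordinates were not used. Primer sequences come from the study's list of oligonucleotides. Python 3.11.15 served for the figures (matplotlib 3.10.9, pandas 2.3.3).

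Groups came from the sample labels. The members, the gene lists and the tests were chosen with earlier results of these data known. Named are all actin genes, the qRT-PCR reference genes, the 3 loci nearest to ACT7 and, in each class of regulators, the called genes and the extremes among those well above background on some array. Each result was recomputed with normexp in place of the processed signal (offset 50), quantile normalization, other scalings (median, spike-in spots, reference genes or none), no or a stricter filter, the mean of all probes, the methods' t-test, the replicate number as a block and each array left out.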

Additional observations from a re-analysis of the deposited data

How the results depend on the processing

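With 2 arrays per tissue and small differences, the calls depended on the processing and the cause was not tested. The actin genes kept their direction in 85 of 90 alternative values, and ACT2 and ACT1 in all 15 of theirs. Part of this was fixed in advance. Each actin gene has 1 probe, so the 2 filters, the mean of all probes, the methods' t-test and the replicate block leave its difference unchanged. Those settings could change a call but not a direction. The count of actin genes lower in the meristem, 2 at the chosen setting, was 0 with normexp background correction, quantile normalization, no scaling, spike-in controls and the methods' t-test, 1 with the replicate block and 0 to 2 with an array left out. The count of higher genes, 0 at the chosen setting, was 2 with quantile normalization, 1 without scaling and 4 with spike-in controls, and 0 when any array was left out. For the regulators, 10 higher became 1 with normexp, 4 with the median, 36 with spike-in controls, 5 with the reference genes and 4 to 10 with an array left out. Their 11 lower became 1 with normexp, 21 with the median, 2 without scaling, 1 with spike-in controls, 17 with the reference genes, 4 with the methods' t-test and 3 to 12 with an array left out. Over all loci, 6301 higher became 547 with normexp, 4088 with the median, 15269 with spike-in controls, 2808 with the methods' t-test and 3736 to 5918 with an array left out. The 5014 lower became 1305 with normexp, 2836 without scaling, 2675 with spike-in controls, 2802 with the methods' t-test and 3676 to 4847 with an array left out. With 1 array left in a tissue, that array is assumed to vary like the others. The reference gene scaling was chosen after seeing the data.

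The sign turned with scaling to the median for ACT8 (-0.15), ACT7 (-0.18), ACT3 (-0.14), FH14 (-0.24), EF1A (-0.044), TIP41-like (-0.11), CNGC13 (-0.19), RUS3 (-0.19) and AT3G16740 (-0.19). It turned with the reference genes for ACT7 (-0.025), FH14 (-0.082), CNGC13 (-0.028), RUS3 (-0.030) and AT3G16740 (-0.035). With spike-in controls it turned for ACT11 (0.14), PRF1 (0.43), PRF2 (0.15), PRF3 (0.068), ADF2 (0.24), CAP1 (0.33), FIM2 (0.036), ARPC3 (0.24), SCAR1 (0.27), SCAR4 (0.17), XI-K (0.45) and PP2AA3 (0.75). Without scaling it turned for PRF1 (0.077), XI-K (0.10) and PP2AA3 (0.40), with normexp for VLN5 (-0.044), PP2AA3 (0.00082) and RUS3 (-0.023), and with quantile normalization for PP2AA3 (0.062), CNGC13 (-0.0039) and RUS3 (-0.13). With an array left out, FH14 ran from -0.11 to 0.22 and PP2AA3 from -0.20 to 0.17, turning without meristem replicate 1 and without leaf replicate 2.

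The labels number the replicates 1 and 2 in both tissues. The deviations of same-numbered arrays correlated at 0.09 over 23259 loci, so the numbers are not known to pair the arrays. As a block they took the call from ACT11 and moved the calls over all loci from 11315 to 10917. Signals near background limit ACT4, ACT12 and the regulators that were not well above background on any array. At 2 arrays per tissue a difference the size of that of ACT7 could not be told from 0.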

Other observations

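The array annotates 3 further loci as putative actins, which were found from their descriptions after the data had been seen. AT2G42090 and AT2G42100 were not well above background on any array. AT2G42170 was well above background on all 4 arrays, with normalized log2 intensities of 9.51 and 9.04 in the meristem and 10.26 and 10.16 in the leaf. Both meristem arrays lay below both leaf arrays, and the difference of -0.94 (95% confidence interval -1.48 to -0.39) passed the test (limma, adjusted p = 0.0217). It was larger in size than that of any of the 6 measured actin genes at the same scaling, and over the alternatives it ran from -1.23 to -0.17 and passed in 9 of 15. As in the named family, how far the probe binds transcripts of other actin genes was not tested.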
